A study of Rattus norvegicus with 6 samples.

Results

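Complement was followed through 9 genes of the deposited count table: the C1q chains C1qa, C1qb and C1qc, the C1 proteases C1r and C1s, the central component C3, the C1 inhibitor Serping1, and the receptors C3ar1 and C5ar1. They were taken by gene symbol, each matched 1 row, and they are 9 of the 33455 genes listed. RNA came from a piece of about 5 mm3 at the lesion centre of wild-type Norway rats with a contusion of the spinal cord at the T9 segment. The first group received a piezoelectric gel with ultrasound (Piezo Gel+US, n = 3) and the second a gel with ultrasound (Gel+US, n = 3). Both groups therefore share the injury, a gel and the stimulation, which lasted 10 min a day for 4 weeks at an intensity of 1.0 W/cm2, a power of 1.0 W and a frequency of 100 Hz. The labels state no strain, sex or age, and no uninjured or unstimulated cord was analysed here. The comparison asks which transcripts differ in the lesion when the gel is piezoelectric.

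Complement is a cascade of plasma and tissue proteins that marks surfaces for removal. C1q, a hexamer of trimers built from A, B and C chains, recognises the target, and the serine proteases C1r and C1s bound to it start the classical pathway, which Serping1 halts by binding both proteases. The cascade converges on C3, whose fragment C3b is deposited on the target while the small fragment C3a signals through C3ar1, and C5a, released further down, signals through C5ar1. In the rodent central nervous system C1q is made mainly by microglia, and in mice C1q and C3 tag synapses that microglia then engulf.

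Of the 9 members, 5 had an entry in the RefSeq promoter table of the GRCr8 assembly, which covers 250 bases before and 50 after the gene start. Those of C1qa, C1qb, C3 and C1r are shown because the first 3 genes and C1r varied between libraries in different ways, as described below. They lie at chr5:154419884-154420183 on the minus strand (C1qa), chr5:154407778-154408077 on the minus strand (C1qb), chr9:2201290-2201589 on the minus strand (C3) and chr4:159098763-159099062 on the plus strand (C1r). Capitals mark matches, on either strand, to the ETS core GGAAGT, the C/EBP motif TTNNGNAA or the STAT motif TTCNNNGAA.
C1qa: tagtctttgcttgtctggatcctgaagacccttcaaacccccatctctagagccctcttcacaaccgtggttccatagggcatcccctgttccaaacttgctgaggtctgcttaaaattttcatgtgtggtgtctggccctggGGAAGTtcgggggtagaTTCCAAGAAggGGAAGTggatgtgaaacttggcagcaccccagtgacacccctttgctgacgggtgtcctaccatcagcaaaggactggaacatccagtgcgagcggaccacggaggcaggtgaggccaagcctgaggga
C1qb: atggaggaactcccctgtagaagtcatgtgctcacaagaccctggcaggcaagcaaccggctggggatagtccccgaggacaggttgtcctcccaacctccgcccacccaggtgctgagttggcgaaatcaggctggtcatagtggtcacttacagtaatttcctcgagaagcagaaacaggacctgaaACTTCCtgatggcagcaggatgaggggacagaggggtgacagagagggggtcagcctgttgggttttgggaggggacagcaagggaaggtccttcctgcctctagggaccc
C3: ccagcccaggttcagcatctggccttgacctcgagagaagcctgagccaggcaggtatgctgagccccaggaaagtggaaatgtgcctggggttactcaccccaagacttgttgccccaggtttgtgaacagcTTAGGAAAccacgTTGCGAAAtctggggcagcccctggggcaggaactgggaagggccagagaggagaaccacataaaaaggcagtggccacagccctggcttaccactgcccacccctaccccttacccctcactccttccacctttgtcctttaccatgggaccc
C1r: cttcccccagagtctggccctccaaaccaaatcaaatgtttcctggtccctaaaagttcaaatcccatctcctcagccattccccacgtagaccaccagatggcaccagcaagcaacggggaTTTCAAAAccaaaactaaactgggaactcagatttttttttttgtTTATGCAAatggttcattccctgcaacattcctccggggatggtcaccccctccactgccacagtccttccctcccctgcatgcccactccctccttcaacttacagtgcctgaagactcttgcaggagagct
The ETS core occurred in the C1qa sequence from 107 and from 79 bases before the start, and in the C1qb sequence, on the opposite strand, from 61 bases before it. C1qa also held a STAT match from 90 bases before the start. The C/EBP motif occurred in C3 from 117 and from 104 bases before the start, the second of them reading as a match on both strands, and in C1r from 128, on the opposite strand, and from 83. Of 33469 promoters of this length in the table, 22.6% held the ETS core, 41.3% the C/EBP motif and 8.87% the STAT motif, so these matches are common. The IRF motif (3.92% of promoters) and the TATA box TATAAA (14.2%) did not occur in these sequences. The fifth promoter, that of C3ar1, held none of the 5 motifs. C1qc, C1s, Serping1 and C5ar1 were not matched.

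By the edgeR quasi-likelihood test, 0 of the 9 members were called between Piezo Gel+US and Gel+US at an adjusted p below 0.05, and over all genes tested the share called was 0.00% (0 of 17066). The adjusted p was 0.994 to 0.997 for the members. At an unadjusted p below 0.05 there were 0 members, against 2.10% of all genes (359), and by DESeq2 0 members were called and 0 were below that level, against 2.81% of all genes at that level (652 of 23195). The groups overlapped in all 9, while over all genes tested 6.81% had groups that did not overlap. The log2 fold change (Piezo Gel+US over Gel+US) was below 0 in 8 of 9 members, as it was in 52.9% of all genes tested. The median was -0.30 for the members and -0.02 for all genes. This lean depended on the fit: without Gel+US replicate 2 the value was below 0 in 4 of 9 members (median 0.060), by limma-voom in 4 of 9 (median 0.071), and with the replicate number as a block in 5 of 9 (median -0.17). It was below 0 in 9 of 9 without Piezo Gel+US replicate 3 (median -0.43), Gel+US replicate 1 (-0.21) or Gel+US replicate 3 (-0.67). Without Piezo Gel+US replicate 1 or 2 it was below 0 in 7 of 9, and by DESeq2 in 8 of 9. Intervals were wide: for every member the 95% interval of the log2 fold change reached at least from -1.35 to 0.90, so differences inside these intervals were not detectable with these libraries.

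**Figure D1:**
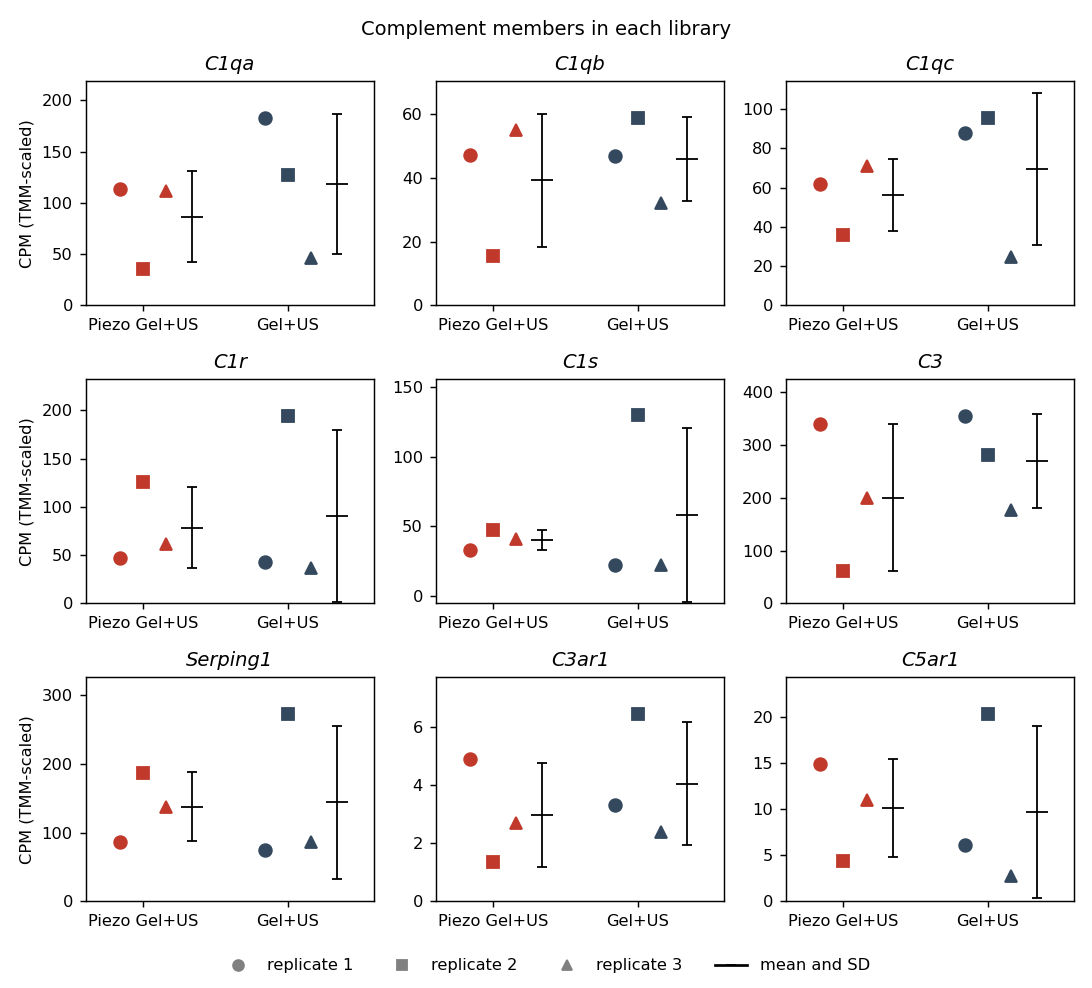
CPM of the 9 members (y axis, counts relative to the TMM-scaled library size) in each Piezo Gel+US and Gel+US library, with the replicate number given by the symbol and the mean and SD beside the points. The groups overlap in all 9 panels; Piezo Gel+US replicate 2 is lowest for C1qa, C1qb, C3 and C3ar1, and Gel+US replicate 2 stands above the other libraries for C1r, C1s and Serping1.

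**Figure D2:**
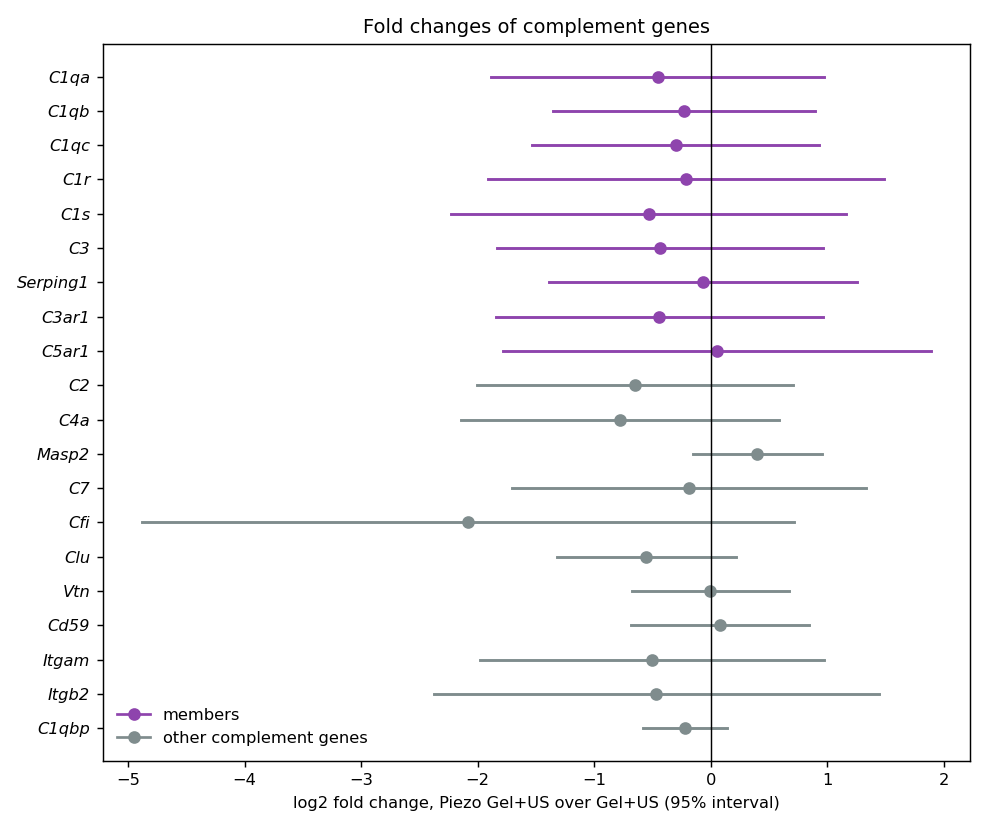
Log2 fold change of Piezo Gel+US over Gel+US (x axis) with its 95% interval from the edgeR fit, for the 9 members and 11 other complement genes. Every interval includes 0, and 8 of the 9 members have a value below 0. This compares with 4 of 9 without Gel+US replicate 2, 5 of 9 with the replicate block and 9 of 9 without Gel+US replicate 3.

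The C1q chains had a lower mean in Piezo Gel+US, by less than the spread between libraries. C1qa, the A chain, measured 113, 35.4 and 111 CPM (counts relative to the TMM-scaled library size) in Piezo Gel+US replicates 1 to 3, against 182, 127 and 46.5 CPM in Gel+US replicates 1 to 3. Piezo Gel+US replicate 2 was lowest and Gel+US replicate 1 highest, and each group spanned more than the difference of their means. The means were 86.6 ± 44.3 CPM in Piezo Gel+US and 119 ± 68.3 CPM in Gel+US (SD, n = 3 each), and the log2 fold change was -0.45 (95% interval -1.88 to 0.98).

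C1qb, the B chain, measured 47.1, 15.6 and 54.8 CPM in Piezo Gel+US and 46.7, 58.5 and 32.2 CPM in Gel+US, in the order of replicates. Piezo Gel+US replicate 2 was again lowest, and the other Piezo Gel+US libraries lay within the range of Gel+US. Its log2 fold change was -0.23 (95% interval -1.35 to 0.90), and 0.15 without Piezo Gel+US replicate 2. C1qc, the C chain, measured 62.0, 35.8 and 71.1 CPM in Piezo Gel+US and 87.8, 95.3 and 24.8 CPM in Gel+US, with a log2 fold change of -0.30 (95% interval -1.53 to 0.93). Here Gel+US replicate 3 was lowest, and the Gel+US libraries enclosed all those of Piezo Gel+US. Without Gel+US replicate 1 the log2 fold change of C1qa was -0.0017, and without Gel+US replicate 2 that of C1qc was -0.0038.

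The C1q genes stand next to each other within 17.8 kb, with no other listed gene between them, by the positions in the authors' table, which names no genome build. C1qa spans 21333395 to 21336302, C1qc 21338909 to 21342277 and C1qb 21345523 to 21351157, all on the plus strand. The protein takes up its chains in equal number, whereas the transcripts per length did not stand in 1 fixed ratio. C1qb stood at 0.395, 0.418 and 0.468 of C1qa in Piezo Gel+US, and at 0.243, 0.438 and 0.657 in Gel+US, both as CPM per kilobase. C1qc stood at 0.426, 0.788 and 0.498 of C1qa in Piezo Gel+US, and at 0.375, 0.584 and 0.415 in Gel+US. The A chain thus had the highest level per length of the 3 in every library. The ratio of C1qb to C1qa spread 2.70-fold over the 6 libraries, with both its lowest and its highest value in Gel+US.

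The C1 proteases and their inhibitor followed another order of libraries. C1r, which activates C1s, measured 47.4, 126 and 62.0 CPM in Piezo Gel+US, against 42.6, 194 and 36.6 CPM in Gel+US. The replicate 2 library was highest in each group. The means were 78.5 ± 41.9 CPM in Piezo Gel+US and 90.9 ± 89.0 CPM in Gel+US (SD, n = 3 each), with a log2 fold change of -0.21 (95% interval -1.91 to 1.49). C1s, which cleaves C4 and C2, measured 32.6, 47.2 and 40.6 CPM in Piezo Gel+US and 22.2, 130 and 21.9 CPM in Gel+US. All Piezo Gel+US libraries lay between the low pair of Gel+US libraries and Gel+US replicate 2. Its log2 fold change was -0.53 (95% interval -2.23 to 1.17).

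Serping1, which encodes the C1 inhibitor, measured 87.0, 188 and 138 CPM in Piezo Gel+US and 74.4, 272 and 85.9 CPM in Gel+US. Replicate 2 was once more highest in each group, and the means of 138 ± 50.3 CPM in Piezo Gel+US and 144 ± 111 CPM in Gel+US (SD, n = 3 each) differed by little beside the spread. The log2 fold change was -0.068 (95% interval -1.39 to 1.25).

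The direction of all 3 depended on the fit. With the replicate number as a block, which compares libraries of equal number, the log2 fold change was 0.096 for C1r, 0.012 for C1s and 0.12 for Serping1. Without Gel+US replicate 2 the log2 fold change was 0.97 for C1r, 0.85 for C1s and 0.77 for Serping1. In that fit C1s had an unadjusted p of 0.00876 and an adjusted p of 0.744 by the edgeR test. Over all genes, 4.46% had an unadjusted p below 0.05 there. The library left out was the highest of the 6 for C1r, C1s and Serping1. Without it all 3 Piezo Gel+US libraries exceeded the remaining Gel+US libraries for these genes. The share of all genes with this separation was not computed, so no difference between the groups is read from it. Without Piezo Gel+US replicate 1 the log2 fold change was 0.022 for C1r, 0.15 for Serping1 and -0.43 for C1s. C1r to C1s held a ratio per length of 1.46, 2.69 and 1.54 in Piezo Gel+US and of 1.93, 1.498 and 1.69 in Gel+US, a spread of 1.84-fold where C1s itself spread 5.95-fold. C1r (23264839 to 23275780, minus strand) and C1s (23245815 to 23257820, plus strand) lie within 30.0 kb in the deposited table and point towards one another without overlap, with 1 other listed row, the uncharacterized LOC116903291, inside that span. A further row, LOC116903302, annotated as C1s-like, had 4.48, 13.2 and 5.95 CPM in Piezo Gel+US and 3.71, 20.7 and 3.71 CPM in Gel+US. No source states how reads shared by this copy and C1s were counted, so C1s levels are uncertain to that extent.

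C3 had the highest CPM of the 9 members in every library except Piezo Gel+US replicate 2, where its own level was lowest. It measured 340, 62.3 and 199 CPM in Piezo Gel+US and 354, 280 and 176 CPM in Gel+US. Piezo Gel+US replicate 1 matched the highest Gel+US library closely, while replicate 2 lay far under all other libraries. The means were 200.2 ± 139 CPM in Piezo Gel+US and 270.2 ± 89.3 CPM in Gel+US (SD, n = 3 each), with a log2 fold change of -0.43 (95% interval -1.83 to 0.97). Without Piezo Gel+US replicate 2 it was -0.0095, and without Piezo Gel+US replicate 1 it was -1.06, with no call in either case.

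The anaphylatoxin receptors were the least abundant members. C3ar1, the receptor for C3a, measured 4.91, 1.36 and 2.69 CPM in Piezo Gel+US and 3.31, 6.44 and 2.41 CPM in Gel+US, which rest on 92, 27 and 52 counts in Piezo Gel+US and on 66, 116 and 48 in Gel+US. Its lowest library was replicate 2 of Piezo Gel+US and its highest was replicate 2 of Gel+US. The log2 fold change was -0.44 (95% interval -1.84 to 0.96), and 0.060 without Gel+US replicate 2. C5ar1, the receptor for C5a on myeloid cells, measured 14.9, 4.38 and 10.97 CPM in Piezo Gel+US and 6.11, 20.3 and 2.76 CPM in Gel+US. It spread 7.35-fold over the 6 libraries, more than any other member. Its log2 fold change of 0.057 (95% interval -1.78 to 1.89) was the only one above 0 among the members. By limma-voom it was 0.90 with an unadjusted p of 0.0332 and an adjusted p of 0.317, in a fit where 14.1% of all genes had an unadjusted p below 0.05. In the edgeR fits it ran from -0.40 without Gel+US replicate 3 to 1.18 without Gel+US replicate 2. C5ar1 to C3ar1 stood at a ratio per length of 2.59, 2.74 and 3.46 in Piezo Gel+US and of 1.57, 2.67 and 0.973 in Gel+US.

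Set beside each other per kilobase of transcript over the 6 libraries, C1qa had the highest level (99.4 ± 52.7 CPM per kilobase, SD, n = 6) and Serping1 the next (77.3 ± 42.4). C1qc (47.4 ± 21.1), C3 (46.5 ± 22.0), C1qb (39.1 ± 14.7) and C1r (30.5 ± 22.5) followed within their spread of one another, and C1s had 17.6 ± 14.7. C5ar1 (5.58 ± 3.82) and C3ar1 (2.33 ± 1.23) closed the order. Each member differed from the next in this order by less than the larger SD of the pair. Within single libraries, both receptors were below the other members in all 6, and C1qa had the highest level in 3 libraries and Serping1 in the other 3.

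The members differed in how they varied across libraries, most of all in Piezo Gel+US replicate 2. There C1qa, C1qb, C1qc, C3, C3ar1 and C5ar1 were below their own mean log2 CPM, whereas C1r, C1s and Serping1 were above it. In Gel+US all 9 were above their mean in replicate 2 and below it in replicate 3. Over the 6 libraries, which share their depth scaling and their tissue mix, Pearson's r of log2 CPM was 0.971 between C1r and Serping1, 0.939 between C1r and C1s, 0.868 between C1qa and C1qb, and 0.882 between C1qa and C3. Between these sets of 6 and 3 genes it ran from -0.393 for C3 and Serping1 to 0.665 for C1s and C5ar1, which is above the 0.537 of C3 and C5ar1 within the first set, so the sets are not sharply divided. These values describe 6 libraries and carry no test.

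**Figure D3:**
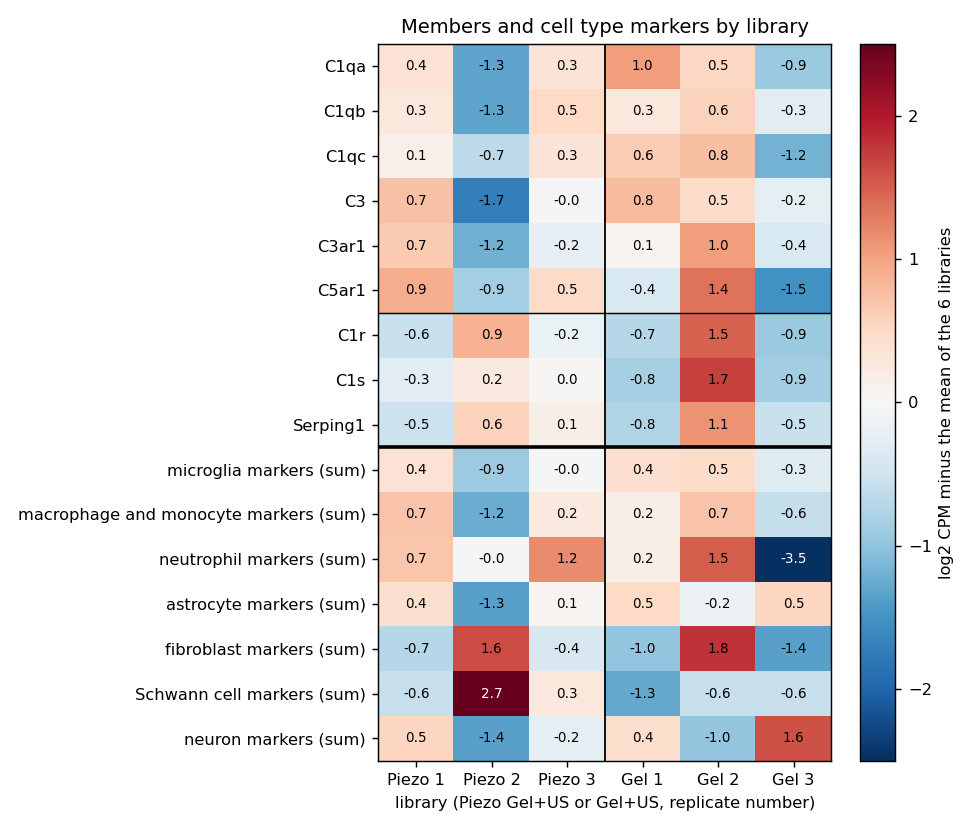
Log2 CPM minus the mean of the 6 libraries (colour and printed value) for the 9 members and for the summed CPM of 7 marker lists, in Piezo Gel+US replicates 1 to 3 and Gel+US replicates 1 to 3. C1qa, C1qb and C3 are at -1.3, -1.3 and -1.7 in Piezo Gel+US replicate 2, where the fibroblast sum is at 1.6 and the Schwann cell sum at 2.7.

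Marker lists of cells in the lesion also varied between libraries, some in the order of a member and some not. Microglia markers (8 of 10 matched) summed to 316 to 757 CPM in Piezo Gel+US and 482 to 814 CPM in Gel+US, with the lowest sum in Piezo Gel+US replicate 2. Macrophage and monocyte markers (12 of 12) summed to 134 to 519 CPM in Piezo Gel+US, lowest in replicate 2, and 209 to 516 CPM in Gel+US. Gpnmb was the largest part of this sum (mean 170 CPM), with 22.7 CPM in Piezo Gel+US replicate 2. Cd68, Adgre1 and Arg1 were also lowest there, whereas Mrc1, F13a1, Ccr2, Lyz2, Aif1 and Cd14 were lowest in Gel+US replicate 3. Fibroblast markers (10 of 10) summed to 1225, 6206 and 1510 CPM in Piezo Gel+US and 1013, 6997 and 782 CPM in Gel+US, so replicate 2 of each group stood apart, as for C1r and Serping1. Schwann cell markers (7 of 8) summed to 70288 CPM in Piezo Gel+US replicate 2, against 4339 to 12723 CPM in the other libraries. Neutrophil markers (9 of 9) summed to 106 to 246 CPM in Piezo Gel+US and 9.52 to 312 CPM in Gel+US. The lowest, Gel+US replicate 3, was also lowest for C5ar1, C1qc, C1r and C1s. Astrocyte markers (8 of 9, Gfap unmatched) summed to 846 to 2825 CPM in Piezo Gel+US and 1939 to 3127 CPM in Gel+US, with the minimum in replicate 2 of Piezo Gel+US while the maximum was in replicate 3 of Gel+US, where all 9 members were below their mean. Neuron markers (6 of 6) had their minimum (1164 CPM) and maximum (8939 CPM) in the same libraries. Hemoglobin rows took 2.42%, 0.670% and 0.163% of counts in Piezo Gel+US and 2.15%, 4.99% and 0.127% in Gel+US. Hepatocyte markers, which would mark RNA from the main source of plasma complement, summed to at most 7.09 CPM in any library. Of these lists no marker was at 0 in all libraries, and 1 to 3 of the 6 hepatocyte markers were at 0 in each library. The part of cell mix in the members' values was not tested, and in bulk tissue fewer cells of a type and less RNA per cell cannot be told apart.

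Ratios of C3 and the C1q chains to 4 chosen genes of microglia and macrophages varied less between libraries than these members themselves, by unequal amounts. C3 spread 5.68-fold over the 6 libraries, and its ratio to Cx3cr1, the fractalkine receptor of microglia, spread 1.39-fold. Its ratio to Csf1r, the receptor that keeps microglia and macrophages alive, spread 1.70-fold, and its ratio to Cd68, a lysosomal protein of phagocytes, 3.24-fold. C1qa spread 5.15-fold, and its ratio spread 1.92-fold to Cx3cr1, 2.25-fold to Csf1r and 3.68-fold to Cd68. C1qb, which spread 3.75-fold, had a ratio to Csf1r that spread 1.59-fold. C1qc spread 3.84-fold and its ratio to Cx3cr1 nearly as much, 3.29-fold. To Aif1, a calcium-binding protein of microglia and macrophages, the ratio spread 3.12-fold for C3 and 2.83-fold for C1qa. The 4 comparison genes were chosen with the data in view, and the ratios are a description. Ratios to the other microglia and macrophage markers were not computed, and not all of those markers ran in this order of libraries. Olfml3, on the microglia list, measured 20.1 CPM in Piezo Gel+US replicate 1 and 56.9 CPM in replicate 2, where C3 was lowest.

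Genes whose log2 CPM followed a member most closely were sought among 9849 others with a mean of at least 10 CPM, by Pearson's r over the 6 libraries. For C3 they were Sox9 (r = 0.994), a transcription factor of astrocytes, Anxa3 (0.990), Fgd3 (0.987), Cx3cr1 (0.987) and Ipmk (0.986). Cx3cr1 measured 61.8, 13.3 and 40.0 CPM in Piezo Gel+US and 67.3, 43.2 and 30.4 CPM in Gel+US, the same order of libraries as C3. For C1qa they were Mroh7 (0.986), Shank3 (0.978), a postsynaptic scaffold, Arhgap22 (0.976), Chd3 (0.975) and Agrn (0.969). For C1s they were Ctnnbl1 (0.990), Mzf1 (0.989), Polm (0.986), Commd7 (0.985) and Svep1 (0.979). Svep1, an extracellular matrix protein, measured 7.84, 12.1 and 8.54 CPM in Piezo Gel+US and 6.31, 32.3 and 6.87 CPM in Gel+US. With so many candidates and 6 libraries, values this high say little of any single gene.

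Libraries of equal replicate number differed in opposite directions. In the replicate 2 libraries all 9 members were lower in Piezo Gel+US, with log2 CPM differences from -2.19 for C5ar1 to -0.54 for Serping1. In the replicate 3 libraries all 9 were higher in Piezo Gel+US, from 0.15 for C3ar1 to 1.95 for C5ar1. In the replicate 1 libraries 6 were higher and 3 lower, between -0.69 for C1qa and 1.28 for C5ar1. Over all genes tested, 51.8% were lower in Piezo Gel+US for replicate 2 and 51.8% higher for replicate 3. These differences of single libraries were not tested.

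**Figure D4:**
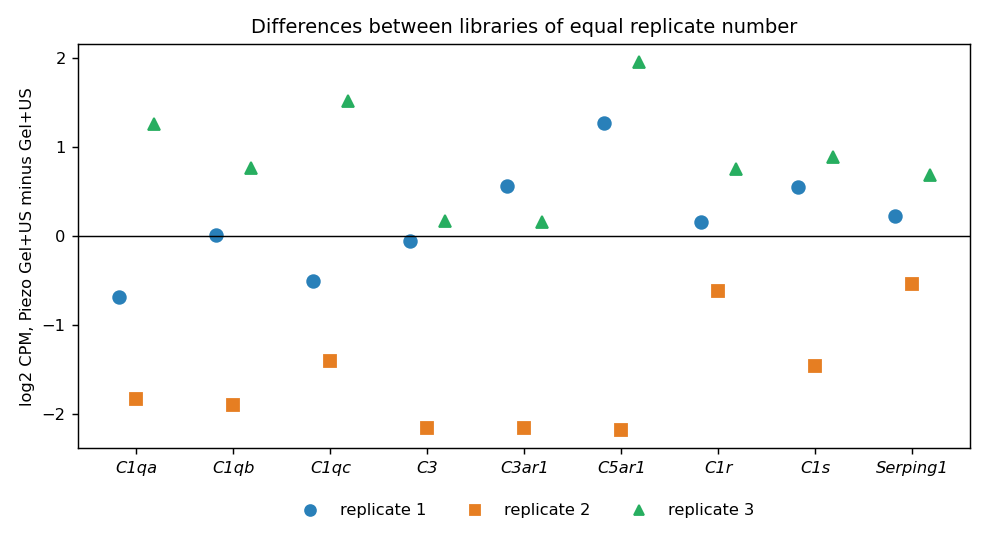
Difference in log2 CPM, Piezo Gel+US minus Gel+US (y axis), between libraries of equal replicate number for the 9 members. All replicate 2 points lie below 0 and all replicate 3 points above it, with replicate 1 on both sides.

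The rest of the pathway gave no call either. Of 49 other complement genes listed, 44 were matched, 31 had enough counts to be tested, 0 were called, and 0 had an unadjusted p below 0.05. Their log2 fold change was below 0 in 24 and above 0 in 7 (median -0.22, against -0.02 over all genes), and without Gel+US replicate 2 the median was 0.069. In the fit of all libraries the log2 fold change was below 0 in 7 of 8 tested recognition and initiation genes. It was below 0 in 4 of 4 fluid-phase regulators and 6 of 7 receptors, while 4 of 7 membrane regulators were above 0. It was below 0 in 2 of 3 alternative pathway genes, 2 of 2 terminal pathway genes and 52.9% of all genes. Of the 8 recognition and initiation genes, 6 were highest in Gel+US replicate 2, against 19.0% of all genes. How these counts change without that library was not counted.

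C4a and C2, whose products form the classical C3 convertase, were highest in Gel+US replicate 2. C4a measured 142, 67.9 and 69.2 CPM in Piezo Gel+US and 163, 260 and 55.4 CPM in Gel+US. The log2 fold change of C4a was -0.78 (95% interval -2.15 to 0.59). Leaving out Piezo Gel+US replicate 1 gave -1.24, and leaving out replicate 2 or replicate 3 of Gel+US gave -0.24 or -1.198. The near copy of C4a, the C4-like row LOC116887241, measured 115, 136 and 63.9 CPM in Piezo Gel+US and 140, 345 and 38.4 CPM in Gel+US, and no source states how reads shared by the 2 rows were counted. C2 had a log2 fold change of -0.65 (95% interval -2.005 to 0.71), and 0.18 without Gel+US replicate 2. Masp2, a protease of the lectin pathway, measured 14.2, 19.5 and 16.97 CPM in Piezo Gel+US and 14.9, 13.3 and 10.1 CPM in Gel+US (log2 fold change 0.40, 95% interval -0.15 to 0.95).

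Of the 31 tested genes, 3 had groups that did not overlap: Clu, C1qbp and Cd46, the last named after its values were seen. Clu, clusterin, which binds terminal complement complexes, measured 1263, 579 and 978 CPM in Piezo Gel+US, all below the 1268, 1445 and 1418 CPM of Gel+US. Over all genes tested, 2.73% had Piezo Gel+US wholly below Gel+US, and 4.08% wholly above it. The log2 fold change of Clu was -0.55 (95% interval -1.32 to 0.22), and -0.31 without Piezo Gel+US replicate 2. Cd46, a cofactor for the cleavage of C3b, measured 4.11, 4.18 and 4.29 CPM in Piezo Gel+US, all above the 3.21, 2.94 and 3.71 CPM of Gel+US (log2 fold change 0.35, 95% interval -0.31 to 1.02). Cfi, which cleaves C3b, had 13, 1 and 3 counts in Piezo Gel+US and 14, 4 and 58 in Gel+US. Its log2 fold change of -2.08 (95% interval -4.88 to 0.71) became -0.63 without Gel+US replicate 3. Vtn, vitronectin, and Cd59, which blocks the membrane attack complex, had log2 fold changes of -0.0032 and 0.080.

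The integrin chains Itgam and Itgb2 form complement receptor 3. Itgam measured 58.8, 11.4 and 41.1 CPM in Piezo Gel+US and 78.7, 50.7 and 28.0 CPM in Gel+US (log2 fold change -0.50, 95% interval -1.98 to 0.98). Leaving out replicate 1 or replicate 2 of Piezo Gel+US gave -1.01 or -0.073, and leaving out replicate 1 or replicate 3 of Gel+US gave -0.085 or -0.80. Itgb2 measured 78.1, 11.6 and 52.5 CPM in Piezo Gel+US and 58.1, 118 and 20.4 CPM in Gel+US (log2 fold change -0.47, 95% interval -2.38 to 1.45). For Itgb2, leaving out replicate 1 or replicate 2 of Piezo Gel+US gave -1.04 or -0.012, and leaving out replicate 2 or replicate 3 of Gel+US gave 0.27 or -0.90. Both were lowest in Piezo Gel+US replicate 2. C1qbp, a mitochondrial protein that binds C1q, was more even, with 43.2, 44.4 and 47.80 CPM in Piezo Gel+US, below the 47.85, 51.8 and 57.9 CPM of Gel+US by a narrow margin (log2 fold change -0.22, 95% interval -0.58 to 0.14).

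Of the terminal pathway 2 genes were tested, C7 and C6, the second named after its values were seen. C7 measured 34.7, 122 and 79.9 CPM in Piezo Gel+US and 66.6, 165 and 37.5 CPM in Gel+US (log2 fold change -0.18, 95% interval -1.71 to 1.34), high in replicate 2 of each group like C1r. C6 had 11, 82 and 19 counts in Piezo Gel+US and 17, 88 and 25 in Gel+US, also highest in replicate 2 of each group. Its log2 fold change was -0.29 (95% interval -2.54 to 1.96), and ran from -1.57 without Piezo Gel+US replicate 2 to 0.83 without Gel+US replicate 2. C8a and C8b, subunits of the membrane attack complex, had 0 counts in all 6 libraries, as did Mbl1, Colec10 and Cpn2, which at 3 counts a library allows a level of up to 0.150 to 0.167 CPM. This floor covers counting error only. C5 had 8, 5 and 3 counts in Piezo Gel+US and 6, 2 and 4 in Gel+US, and the 13 matched genes that were not tested had at most 13 counts in any library.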

How the data were processed

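The values deposited by the authors are unnormalised counts, whole numbers for each gene in the 6 libraries, and the same table gives each gene's length. The submitters' processing notes list, with no roles, DESeq2 1.20.0, featureCounts 1.5.0-p3, HISAT2 2.0.5 and fastp 0.19.7. The genome build and the use of strand in counting are not given in the sources used here. Per the labels' protocols, polyadenylated RNA was selected and libraries were strand-specific. Of the table's gene identifiers, 0 occurred in the RefSeq gene table of GRCr8, while all 9 members shared a symbol with it. The deposited annotation is therefore not that of GRCr8, and whether it is of the same species was not established. Positions are printed as deposited, and promoters, taken from RefSeq, belong to another annotation. What this means for levels, near copies and unmatched symbols was not tested. Library totals were 18672101, 21436820 and 19132453 counts in Piezo Gel+US and 19492818, 17212653 and 20198203 in Gel+US.

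Counts were tested with edgeR 4.0.16 in R 4.3.3 (TMM factors, filterByExpr with minimum count 10 and total 15, robust quasi-likelihood test, group as the only term, Benjamini-Hochberg adjustment over 17066 genes, threshold 0.05), a procedure tested on simulated data. The simulated counts were drawn for each gene on its own, without shifts shared by genes of a library. No conclusion on the calls is drawn from them. The common biological coefficient of variation was 0.382. Alternatives used DESeq2 1.42.0, its size factors, limma 3.58.1 (voom with quality weights), no filter, a replicate block and each library left out. CPM use the TMM-scaled library size, and log2 CPM a prior count of 2. The labels call the samples biological replicates.

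Both groups are numbered 1 to 3. Libraries with the same number correlated, in their deviations from the mean of their group, at 0.253, 0.296 and 0.251 in that order. Libraries of different number ran from -0.342 (Piezo Gel+US 3 with Gel+US 2) to 0.198 (Piezo Gel+US 3 with Gel+US 1). The rule used here treats the numbers as pairs, although the labels do not say what a number marks. The fold changes, intervals and p of the main fit do not use this pairing, and the replicate block, given as an alternative, does.

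The members and lists were chosen with earlier results of these data known. Of 49 other complement genes, 37 matched by symbol, 7 by a row whose product carried the name, and 5 were unmatched. Named among them are the 10 of highest mean CPM and the 3 of lowest p. One gene that this rule names is not reported here. Near copies, ratio partners and genes with few counts named beside them were chosen after their values were seen.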

Additional observations from a re-analysis of the deposited data

How the results depend on the processing

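Under all 11 alternatives 0 members, 0 other complement genes and 0 genes overall were called. The number of genes at an unadjusted p below 0.05 ran from 141 without Gel+US replicate 1 to 775 without Gel+US replicate 2 in the fits that left out a library, and was 652 by DESeq2, 2413 by limma-voom, 496 without the low-count filter and 352 with DESeq2 size factors, against 359. With the replicate block it was 986, and among the members the block turned the log2 fold change of C1r, C1s and Serping1 to 0.096, 0.012 and 0.12, and that of Vtn to 0.050. It changed no call, and no direction of the other members or complement genes refitted. Limma-voom turned C1qb, C1r, C1s and Serping1 to 0.071, 0.37, 0.65 and 0.58, and there C5ar1 had 0.90 at an unadjusted p of 0.0332 (adjusted p = 0.317). Leaving out 1 library moved the log2 fold change over these ranges: C1qb -0.55 to 0.15, C1r -0.75 to 0.97, C1s -0.95 to 0.85, Serping1 -0.38 to 0.77, C3ar1 -1.01 to 0.060, C5ar1 -0.40 to 1.18, C2 -1.03 to 0.18, C7 -0.66 to 0.59, Vtn -0.27 to 0.16, Cd59 -0.13 to 0.41, Itgb2 -1.04 to 0.27 and C6 -1.57 to 0.83. The cause was not tested. C1qa, C1qc and C3 kept a value below 0 in each fit, at -0.84 to -0.0017, -0.71 to -0.0038 and -1.06 to -0.0095 with a library left out, and C4a and Itgam at -1.24 to -0.24 and -1.01 to -0.073. Depth limits C3ar1 and Cfi, whose lowest libraries had 27 and 1 counts.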
